A study of Lytechinus variegatus with 18 samples.

Results

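Sp-Sfrp1/5 and Sp-Rspo3 are a pair of genes that encode secreted modulators of Wnt signalling, and their transcripts were followed in whole Lytechinus variegatus embryos, a sea urchin. Both were chosen by name from the deposited annotation, which names each gene model after its closest match in another sea urchin, Strongylocentrotus purpuratus (prefix Sp-). Each name belonged to 1 gene model, so they are 2 of 27230 gene models in the count table and 2 of 18674 that passed the filter on low counts. Sp-Sfrp1/5 is gene model L_var_12005, on the minus strand of chromosome 6 from position 18188455 to 18194100, a span of 5646 bases. Its protein hit in S. purpuratus has 80.7% identity, and its closest UniProt entry is SFRP5_BOVIN. Sp-Rspo3 is gene model L_var_25445, on the plus strand of chromosome 17 from 22183313 to 22187484, a span of 4172 bases. Its hit has 79.5% identity, and its closest UniProt entry is RSPO2_MOUSE, so the number 3 in its name is that of the hit's annotation. Positions are as the deposited annotation gives them, and its genome build is not given in the sources used here. Both genes were put together with measured values in view. Sp-Sfrp1/5 had been singled out by how its ethanol difference varied over time, and Sp-Rspo3 by its ethanol difference at 15 hours post fertilization (hpf). Those differences are given below as descriptions, with no p-value.

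Wild-type embryos treated with ethanol from fertilization were collected at 15, 18 or 21 hpf, and control embryos at the same times. This gave 6 groups of 3 biological replicates, 18 samples in all, each with total RNA of about 150 whole embryos. The ethanol concentration, the handling of controls beyond that word and the parents of each replicate are not given in the sources used here. P-values therefore measure the spread between these samples.

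Wnt proteins are secreted signals that bind frizzled receptors. Secreted frizzled-related proteins carry a cysteine-rich domain like that of frizzled receptors and bind Wnt proteins outside the cell. In sea urchin embryos, Wnt signals from the posterior (vegetal) region restrict the anterior neuroectoderm to the opposite pole, and sfrp1/5 is known as a gene of that anterior territory. In vertebrates, R-spondins act through Lgr-type receptors and the membrane ubiquitin ligases Znrf3 and Rnf43. Those ligases remove frizzled receptors from the cell surface, and R-spondins hold them back, which raises the response to Wnt.

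The 18 libraries held between 7133636 and 8000894 counts. Levels are read counts scaled to a common library size with edgeR's TMM factors, as counts per 1000000 (CPM). They are not divided by transcript length, so the levels of Sp-Sfrp1/5 and Sp-Rspo3 are not compared with each other. Genes that mark endoderm (Sp-Endo16, 3195 to 22221 counts), oral ectoderm (Sp-Nodal, 311 to 1388 counts), pigment cells (Sp-Pks1, 16779 to 73661 counts) and skeletogenic mesenchyme (Sp-Msp130, 4587 to 17045 counts) were detected in all 18 libraries. At 21 hpf the replicate 3 pair stood apart. Of 760 genes called between ethanol and control embryos at 18 hpf in a fit that also held the replicate number, the replicate block, 92.9% and 94.9% had the same direction at 21 hpf in replicates 1 and 2, against 4.87% in replicate 3. The deposited labels were kept. Whether the ethanol and control labels of that pair were exchanged was not tested, and if they were, every replicate 3 ratio at 21 hpf below would be turned round. The ethanol differences and time courses of both genes at 21 hpf are given with and without that pair.

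Sp-Sfrp1/5 was low in the youngest ethanol embryos and approached the control level over the following 6 hours. At 15 hpf its level was 34.9, 40.2 and 33.0 CPM in ethanol replicates 1, 2 and 3, against 228, 279 and 191 CPM in the control replicates. The highest ethanol library lay far below the lowest control library. The gene was measured at 259 to 314 counts in those ethanol libraries and 1352 to 1777 counts in the controls, so counting error was small beside the difference. The ethanol mean was 36.04 ± 3.70 CPM and the control mean 233 ± 44.4 CPM (SD, n = 3 each), which puts the ethanol mean at 15.5% of the control mean. The fitted log2 fold change of ethanol over control was -2.69 (SE 0.32), a 6.45-fold lower level. In whole-embryo RNA, fewer cells with the transcript and less transcript per cell cannot be told apart.

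At 18 hpf the level was 131, 80.9 and 82.1 CPM in the 3 ethanol libraries, against 305, 265 and 298 CPM in the 3 control libraries. The groups again did not overlap, with replicate 1 the highest library within each. Means were 98.1 ± 28.7 CPM in ethanol embryos and 289 ± 21.5 CPM in control embryos (SD, n = 3 each). The fitted log2 fold change was -1.56 (SE 0.31), a 2.95-fold lower level in ethanol embryos. For comparison with these 2 separations, the ethanol libraries lay entirely below the control libraries for 7.46% of tested genes at 15 hpf and 13.8% at 18 hpf. Because Sp-Sfrp1/5 was picked for this pattern, nothing is read from those shares.

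At 21 hpf the level was 264, 116 and 262 CPM in ethanol replicates 1, 2 and 3, against 224, 269 and 169 CPM in the controls. The groups overlapped: the ethanol library of replicate 2 was the lowest of the 6, while those of replicates 1 and 3 lay above their own controls. Means were 214 ± 85.0 CPM in ethanol embryos and 221 ± 50.2 CPM in control embryos (SD, n = 3 each), and the fitted log2 fold change was -0.04 (SE 0.30). It was -0.38 without the replicate 3 pair and 0.43 without replicate 2, so that single replicates set its sign.

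Taken replicate by replicate, the ethanol level of Sp-Sfrp1/5 at 15 hpf was 15.3%, 14.4% and 17.3% of the control of the same number. At 18 hpf it was 43.0%, 30.6% and 27.6%. At 21 hpf it was 118%, 43.1% and 155%. All 3 replicate numbers had a larger share of the control level at each later time. The log2 differences of the pairs averaged -2.67 ± 0.14 at 15 hpf, -1.59 ± 0.33 at 18 hpf and -0.12 ± 0.97 at 21 hpf (SD, n = 3 pairs each), so the spread between pairs was widest at 21 hpf. At 21 hpf the check of pairing gave unlike values for the 3 replicate numbers, so pairing there was not shown.

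**Figure D1:**
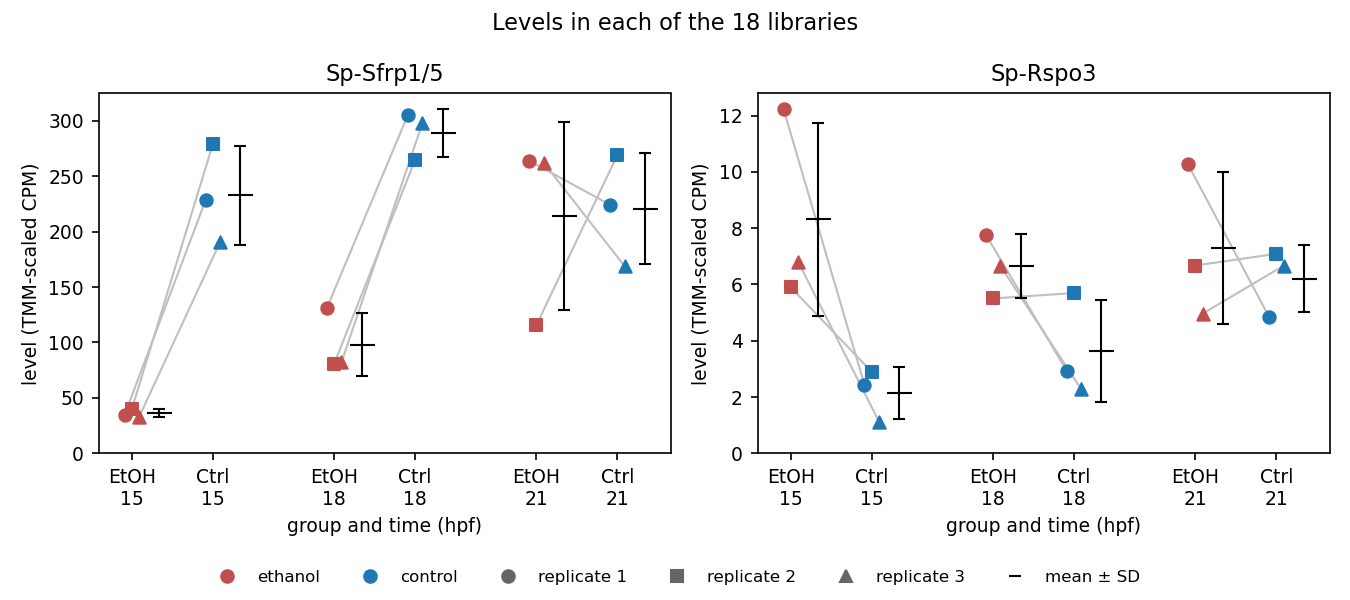
Level of Sp-Sfrp1/5 (left) and Sp-Rspo3 (right) in TMM-scaled CPM in each of the 18 libraries, by group and time in hours post fertilization (hpf). Red symbols are ethanol (EtOH) and blue control (Ctrl) libraries, shapes are replicate numbers, grey lines join libraries of the same number, and black bars are mean ± SD of 3 libraries. Ethanol libraries of Sp-Sfrp1/5 lay between 33.0 and 40.2 CPM at 15 hpf, below all controls, and overlapped the controls at 21 hpf; for Sp-Rspo3 the ethanol libraries lay above the controls at 15 hpf and overlapped them at 18 and 21 hpf.

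Over time, it was the ethanol level of Sp-Sfrp1/5 that differed most. The level at 21 hpf over that at 15 hpf was 7.56, 2.88 and 7.94 in ethanol replicates 1, 2 and 3, and the fitted log2 change was 2.57 (SE 0.32), or 5.94-fold. In control embryos the same ratio was 0.983, 0.964 and 0.886, and the fitted log2 change was -0.08 (SE 0.30). Without the replicate 3 pair at 21 hpf these log2 changes were 2.40 in ethanol embryos and 0.08 in control embryos. Replicate 2 had the smallest ratio among the ethanol embryos at both the step to 18 hpf (2.02-fold) and the step to 21 hpf (1.43-fold). The ethanol mean at 18 hpf was still 42.2% of the control mean at 15 hpf.

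The change with time averaged over ethanol and control embryos is another contrast than the one Sp-Sfrp1/5 was picked on, but from the same libraries. It was tested with edgeR's quasi-likelihood test, with Benjamini-Hochberg adjustment over all 18674 genes. The p-values take no account of how the gene was picked. Averaged in this way, Sp-Sfrp1/5 rose between 15 and 21 hpf, by a log2 change of 1.25 (SE 0.21, adjusted p = 0.00117). In that comparison 12.7% of tested genes were called, 7.83% in the upward direction. The average was made up of 3 of 3 ethanol replicates that were higher at 21 hpf and 0 of 3 control replicates that were, so it is no support separate from the ethanol time course above. It had an adjusted p of 0.00231 without the replicate 3 pair, and lost its call without the 6 libraries of replicate 1 (log2 change 1.16, edgeR adjusted p = 0.0667), though not in the fit with the block (1.17, edgeR adjusted p = 0.0191). The step from 15 to 18 hpf had a log2 change of 0.88 (SE 0.21) and did not pass (edgeR adjusted p = 0.0712), in a comparison with 0.787% of genes called. With the replicate number as a block, the change was 0.87 and passed (edgeR adjusted p = 0.0251), with 3.63% of genes called. The step from 18 to 21 hpf was 0.37 (SE 0.21, edgeR adjusted p = 0.812, 0.0482% of genes called), and 0.36 without the replicate 3 pair.

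Sp-Rspo3 was a low-count gene, with 8 to 110 counts per library, and was high in ethanol embryos at 15 hpf. Its level at that time was 12.2, 5.89 and 6.81 CPM in ethanol replicates 1, 2 and 3, against 2.44, 2.90 and 1.13 CPM in the controls. The groups did not overlap, and ethanol replicate 1 stood well above the other 2 ethanol libraries. The ethanol libraries held 110, 38 and 61 counts, against 19, 17 and 8 in the controls. The exact 95% Poisson interval, which covers counting error only, was scaled to CPM as the levels were. It was 4.17 to 8.09 CPM for the lowest ethanol library, replicate 2. For the highest control library, also replicate 2, it was 1.69 to 4.64 CPM, and those 2 intervals overlap. The interval of control replicate 1, 1.47 to 3.81 CPM, lay below that of ethanol replicate 2.

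Mean levels of Sp-Rspo3 at 15 hpf were 8.31 ± 3.42 CPM in ethanol embryos and 2.15 ± 0.918 CPM in control embryos (SD, n = 3 each). The fitted log2 fold change was 1.95 (SE 0.45), a 3.86-fold higher level. For 6.72% of tested genes all ethanol libraries lay above all control libraries at 15 hpf, and nothing is read from that share for a gene picked in this comparison.

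At 18 hpf the level was 7.77, 5.50 and 6.66 CPM in the ethanol libraries, against 2.93, 5.69 and 2.28 CPM in the controls. Replicates 1 and 3 had the higher level in ethanol embryos, while in replicate 2 the ethanol and control libraries were nearly equal. Means were 6.64 ± 1.13 CPM in ethanol embryos and 3.64 ± 1.81 CPM in control embryos (SD, n = 3 each). The log2 fold change was 0.88 (SE 0.43, 95% interval -0.03 to 1.78), higher in 2 of 3 pairs, and did not pass (edgeR adjusted p = 0.314). No gene passed in that comparison (0% called by edgeR, with 3070 genes at an unadjusted p under 0.05, 0 called by limma-voom and 280 by DESeq2). With the block 4.07% of genes were called, and Sp-Rspo3 was not among them (log2 fold change 0.91, edgeR adjusted p = 0.114). Over all 14 alternatives its adjusted p lay between 0.0665 and 0.692.

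At 21 hpf the level was 10.3, 6.67 and 4.96 CPM in the ethanol libraries, against 4.86, 7.09 and 6.66 CPM in the controls. The groups overlapped, and the ethanol library was the higher one in replicate 1 alone. Means were 7.30 ± 2.71 CPM in ethanol embryos and 6.20 ± 1.18 CPM in control embryos (SD, n = 3 each). The log2 fold change was 0.23 (SE 0.42, 95% interval -0.65 to 1.12) and did not pass (edgeR adjusted p = 1). Without the replicate 3 pair it was 0.50 (edgeR adjusted p = 0.762), and without replicate 1 it was -0.22. Here too 0% of genes were called by edgeR, with 128 at an unadjusted p under 0.05, and limma-voom and DESeq2 called 0. The ethanol difference of Sp-Rspo3 at 21 hpf minus that at 18 hpf was -0.64 on the log2 scale (SE 0.60, edgeR adjusted p = 0.946), so a decline between these times was not shown.

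**Figure D2:**
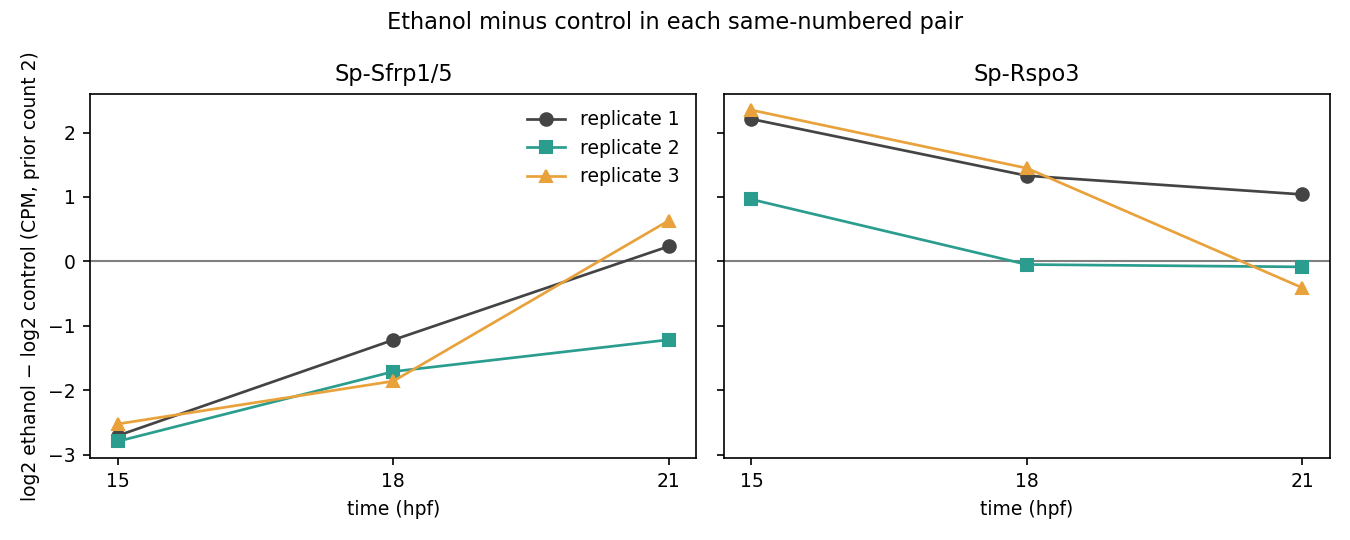
Difference in log2 CPM (prior count 2) between the ethanol and the control library of the same replicate number, against time in hours post fertilization (hpf), for Sp-Sfrp1/5 (left) and Sp-Rspo3 (right). Each line is 1 replicate number, and 0 marks equal levels. The lines of Sp-Sfrp1/5 start between -2.79 and -2.52 at 15 hpf and end between -1.21 and 0.63 at 21 hpf; those of Sp-Rspo3 start between 0.96 and 2.35 and end between -0.41 and 1.04.

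In the pairs, the ethanol level of Sp-Rspo3 was 5.01, 2.04 and 6.04 times the control level at 15 hpf in replicates 1, 2 and 3. At 18 hpf the ratios were 2.65, 0.966 and 2.92, and at 21 hpf they were 2.11, 0.942 and 0.745. Replicate 2 had the smallest ratio at 15 and 18 hpf. The log2 differences averaged 1.84 ± 0.76 at 15 hpf, 0.91 ± 0.83 at 18 hpf and 0.18 ± 0.76 at 21 hpf (SD, n = 3 pairs each).

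Over time, it was the control level of Sp-Rspo3 that differed most. In ethanol embryos the level at 21 hpf was 0.839, 1.13 and 0.729 times that at 15 hpf, with a fitted log2 change of -0.19 (SE 0.41). In control embryos the ratios were 1.99, 2.45 and 5.91, with a fitted log2 change of 1.52 (SE 0.44, 2.88-fold). Without the replicate 3 pair at 21 hpf these log2 changes were 0.02 in ethanol embryos and 1.47 in control embryos. The ethanol mean at 15 hpf was 134% of the control mean at 21 hpf, and 2 of the 3 ethanol libraries at 15 hpf lay within the range of the control libraries 6 hours later, with replicate 1 above it. Averaged over ethanol and control embryos, the log2 change from 15 to 21 hpf was 0.67 (SE 0.30) and did not pass (edgeR adjusted p = 0.177). The steps from 15 to 18 hpf (0.21, edgeR adjusted p = 0.951) and from 18 to 21 hpf (0.46, edgeR adjusted p = 0.891) did not pass either.

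Ordered by mean level from low to high, the groups of Sp-Sfrp1/5 were ethanol at 15 hpf, ethanol at 18 hpf, ethanol at 21 hpf, control at 21 hpf, control at 15 hpf and control at 18 hpf. Only the step from ethanol at 15 hpf to ethanol at 18 hpf separated neighbours whose libraries did not overlap. Ordered from high to low, the groups of Sp-Rspo3 were ethanol at 15 hpf, ethanol at 21 hpf, ethanol at 18 hpf, control at 21 hpf, control at 18 hpf and control at 15 hpf. All neighbours in that order overlapped. Thus the 3 ethanol groups held the lowest means of Sp-Sfrp1/5 and the highest means of Sp-Rspo3. Without the replicate 3 pair at 21 hpf, the ethanol means at 21 hpf were 189.9 CPM for Sp-Sfrp1/5 and 8.47 CPM for Sp-Rspo3, against control means of 247 and 5.97 CPM. That exchanged control at 21 hpf and control at 15 hpf for Sp-Sfrp1/5, and ethanol at 21 hpf and ethanol at 15 hpf for Sp-Rspo3. Across the 18 libraries the log2 CPM values of the pair had a Pearson r of -0.47 and a Spearman rank correlation of -0.47 with each other. That is a description over libraries that share groups and times.

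The genes with the pattern most like each were found by Pearson r in log2 CPM over the 18 libraries, among 11020 named genes with a mean log2 CPM of at least 2. For Sp-Sfrp1/5 these were Sp-Hypp_2760 (r = 0.97), Sp-Hypp_2858 (0.97), Sp-Hypp_2442 (0.96), Sp-Nkx3-2 (0.95) and Sp-Hyal1 (0.94). The first 2 are annotated as hypothetical proteins, Sp-Hypp_2442 as a tolloid-like protein, Sp-Nkx3-2 as a homeobox transcription factor and Sp-Hyal1 as a hyaluronidase, an enzyme that cuts hyaluronan. Sp-Nkx3-2 averaged 8.96 CPM in ethanol and 65.2 CPM in control embryos at 15 hpf. At 18 hpf it averaged 34.0 CPM in ethanol and 85.1 CPM in control embryos, and at 21 hpf 56.0 CPM in ethanol and 65.7 CPM in control embryos (52.6 CPM in ethanol and 82.3 CPM in control embryos without the replicate 3 pair). Sp-Hypp_2760 averaged 49.1 CPM in ethanol and 319 CPM in control embryos at 15 hpf, and 222 CPM in ethanol and 317 CPM in control embryos at 21 hpf (204 CPM in ethanol and 377 CPM in control embryos without that pair). All 5 had their lowest group mean in ethanol embryos at 15 hpf. As they were picked for likeness over the same libraries, nothing is read from that. At 15 hpf their ethanol mean was 15.4%, 14.2%, 38.7%, 13.7% and 31.4% of the control mean, in the order named, beside 15.5% for Sp-Sfrp1/5.

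For Sp-Rspo3 the most like genes were Sp-Srcr192 (r = 0.89), Sp-Clca_1 (0.88), Sp-Trim3L_2 (0.87) and Sp-Hypp_457 (0.86). The first is named as a scavenger receptor cysteine-rich protein, and Sp-Clca_1 has its closest UniProt entry in the calcium-activated chloride channel regulators. Sp-Srcr192 averaged 34.0 CPM in ethanol and 17.7 CPM in control embryos at 15 hpf, and 39.7 CPM in ethanol and 41.4 CPM in control embryos at 21 hpf (46.6 CPM in ethanol and 38.0 CPM in control embryos without the replicate 3 pair). All 4 had their lowest group mean in control embryos at 15 hpf, and again nothing is read from that for genes picked by likeness. By Spearman rank correlation 4 of the first 5 genes were again among the first 5 for Sp-Sfrp1/5, and 2 of the first 5 for Sp-Rspo3.

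**Figure D3:**
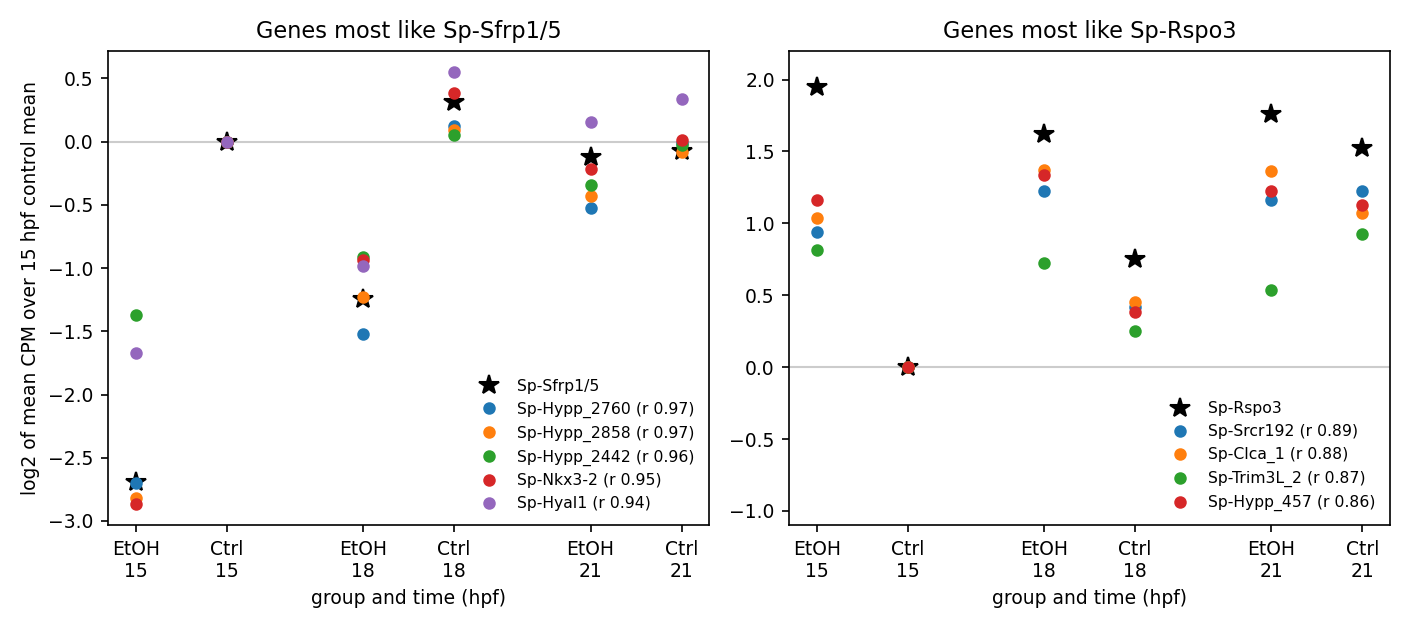
Group means of Sp-Sfrp1/5 (left, stars) and Sp-Rspo3 (right, stars) and of the genes named as most like each, 5 on the left and 4 on the right (circles), as log2 of the mean CPM over that gene's control mean at 15 hpf, by group and time in hours post fertilization (hpf). EtOH is ethanol and Ctrl control, and r is Pearson's r in log2 CPM over 18 libraries. On the left all genes are lowest in ethanol embryos at 15 hpf, and on the right all are lowest in control embryos at 15 hpf. The genes shown as circles were picked for likeness over the same libraries.

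Other genes of the Wnt pathway were read from a list of 39 names, which matched 53 gene models besides Sp-Sfrp1/5 and Sp-Rspo3, 46 of them tested. At 15 hpf edgeR called 0 of the 46 higher and 1 lower in ethanol embryos, with 8 at an unadjusted p under 0.05. That unadjusted threshold was met by 2038 of all 18674 tested genes. Among all tested genes 0.0589% were called in that comparison. With the replicate block the list count stayed at 1 lower, while 0.477% of all genes were called, 0.359% lower. The median log2 fold change of the list was 0.24, beside 0.04 for all genes, so the median and the 1 call had opposite signs. At 18 hpf DESeq2 called 3 of the 46 (280 of all genes) and limma-voom 0. Without the block edgeR called 0, with 13 at an unadjusted p under 0.05 (3070 of all genes). With the block 1 was called higher and 2 lower, where 4.07% of all genes were called, 1.46% higher and 2.61% lower. The median there was 0.34, beside 0.05 for all genes. At 21 hpf 0 of 46 were called by edgeR, DESeq2 or limma-voom, and 0 had an unadjusted p under 0.05 (128 of all genes in edgeR's fit). The median was 0.10, beside -0.02 for all genes. With the replicate 3 pair left out, the median was 0.54, beside 0.02 for all genes, with 0 called and 10 at an unadjusted p under 0.05 in edgeR's fit without the block. In that fit 12 of all genes were called, and their count at the unadjusted threshold is not given here.

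Among 13 tested ligands, Sp-Wnt3 had 16.1, 15.7 and 9.30 CPM in ethanol embryos at 18 hpf, against 40.7, 37.6 and 33.5 CPM in controls. Its log2 fold change was -1.44 without the block, where it did not pass (edgeR adjusted p = 0.229). With the block it was -1.48 and passed (edgeR adjusted p = 0.0436). Sp-Wnt16 had 53.8, 34.8 and 41.0 CPM in ethanol embryos at 18 hpf, against 24.0, 13.5 and 10.9 CPM in controls. Its log2 fold change was 1.42 without the block, where it did not pass (edgeR adjusted p = 0.231). With the block it was 1.45 and passed (edgeR adjusted p = 0.0462). The ethanol and control libraries did not overlap for either ligand at 18 hpf, where 27.3% of tested genes were so separated. At 21 hpf both ligands ran against their 18 hpf direction in replicate 3, with Sp-Wnt3 at 58.1 CPM in the ethanol library against 19.5 CPM in the control library. Without that pair the 21 hpf log2 fold changes were -0.27 for Sp-Wnt3 (0.27 with it) and 1.22 for Sp-Wnt16 (0.45 with it), and none was called.

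None of the 12 tested receptor models was called at any single time in edgeR's fit with or without the block. Averaged over the times with the block, Sp-Ryk and both models of Sp-Fzd4 and Sp-Fzd9/10 were called higher, where 8.95% of all genes were. Sp-Fzd5/8, a frizzled receptor with a part in patterning the anterior neuroectoderm of sea urchins, had a log2 fold change of -0.16 at 15 hpf and 0.44 at 18 hpf. Sp-Fzd1/2/7 had -0.04 at 15 hpf and 0.39 at 18 hpf. Sp-Fzd4 and Sp-Fzd9/10 were each carried by 2 gene models between which reads could be split, so their values are uncertain. Those 4 models had log2 fold changes of 0.42 to 0.75 at 15 hpf and 0.45 to 0.73 at 18 hpf. Sp-Lrp6, a co-receptor, was carried by 3 gene models with the same caution, and the 2 that were tested had 0.26 and 0.33 at 15 hpf and 0.75 and 0.95 at 18 hpf.

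Sp-Znrf3 belongs to the ligases through which R-spondins act in vertebrates. Its level at 15 hpf was 34.5, 15.0 and 66.0 CPM in ethanol embryos, against 29.9, 6.47 and 15.8 CPM in controls, higher in ethanol in each pair although the groups overlapped. At 18 hpf it was 18.1, 16.8 and 29.9 CPM in ethanol embryos, against 6.80, 6.18 and 9.52 CPM in controls, with no overlap. Its log2 fold change was 1.14 at 15 hpf (edgeR adjusted p = 0.499, with the block 0.231) and 1.52 at 18 hpf (0.268, with the block 0.0743), and neither passed. At 21 hpf it was 11.1, 16.7 and 10.97 CPM in ethanol embryos, against 8.18, 11.7 and 40.7 CPM in controls, higher in ethanol in replicates 1 and 2 and lower in replicate 3. The 21 hpf log2 fold change was -0.65, and 0.49 without the replicate 3 pair (edgeR adjusted p = 0.825). No gene model matched the names of Lgr4/5/6-type receptors or Rnf43, and these were not analysed here.

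Among the genes listed here as secreted antagonists, Sp-Dkk3, of the Dickkopf family, was the gene called at 15 hpf. It had 12.3, 12.7 and 12.4 CPM in ethanol embryos, against 39.3, 45.3 and 35.2 CPM in controls. Its log2 fold change was -1.68 (edgeR adjusted p = 0.0132, with the block 0.00171), lower in 3 of 3 pairs. At 18 hpf it was -0.64 (edgeR adjusted p = 0.249), and at 21 hpf -0.40 (edgeR adjusted p = 1; -0.54 without the replicate 3 pair, adjusted p = 0.549). Sp-Notum, whose relatives in flies and vertebrates encode an enzyme that removes the lipid of Wnt proteins, had 3.66, 5.50 and 5.07 CPM in ethanol embryos at 18 hpf, against 15.997, 29.5 and 42.9 CPM in controls. Its log2 fold change was -2.63 without the block, where it did not pass (edgeR adjusted p = 0.229). With the block it was -2.59 and passed (edgeR adjusted p = 0.0426). At 15 hpf the log2 fold change was -2.23 without the block (edgeR adjusted p = 0.279, with the block 0.0729). At 21 hpf it was -0.25 without the block and was not called. Sp-Notum was then lower in ethanol in replicates 1 and 2. In replicate 3 it was higher, at 28.5 CPM in the ethanol library against 6.29 CPM in the control library. Without that pair the 21 hpf log2 fold change was -1.445 (edgeR adjusted p = 0.264).

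Sp-Dkk1 had log2 fold changes of 0.56 at 15 hpf and 0.36 at 18 hpf, and Sp-Wif, a Wnt-binding protein, had -0.60 and -0.76, with no call at either time. The other secreted frizzled-related name, Sp-Sfrp3/4II, was carried by 3 gene models with at most 9 counts in any library, and none passed the filter. In the cytoplasm and nucleus, 0 of 12 tested models were called at any single time in edgeR's fit with or without the block. The cytoplasmic genes, such as Sp-Axin and Sp-Dsh (Dishevelled), ranged from -0.54 to 0.23 at 15 hpf and from -0.20 to 0.11 at 18 hpf. The 2 models of Sp-Tcf, the transcription factor that acts with beta-catenin, between which reads could also be split, had 1.13 and 1.60 at 18 hpf (edgeR adjusted p = 0.247 and 0.249, with the block 0.0577 and 0.0550).

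**Figure D4:**
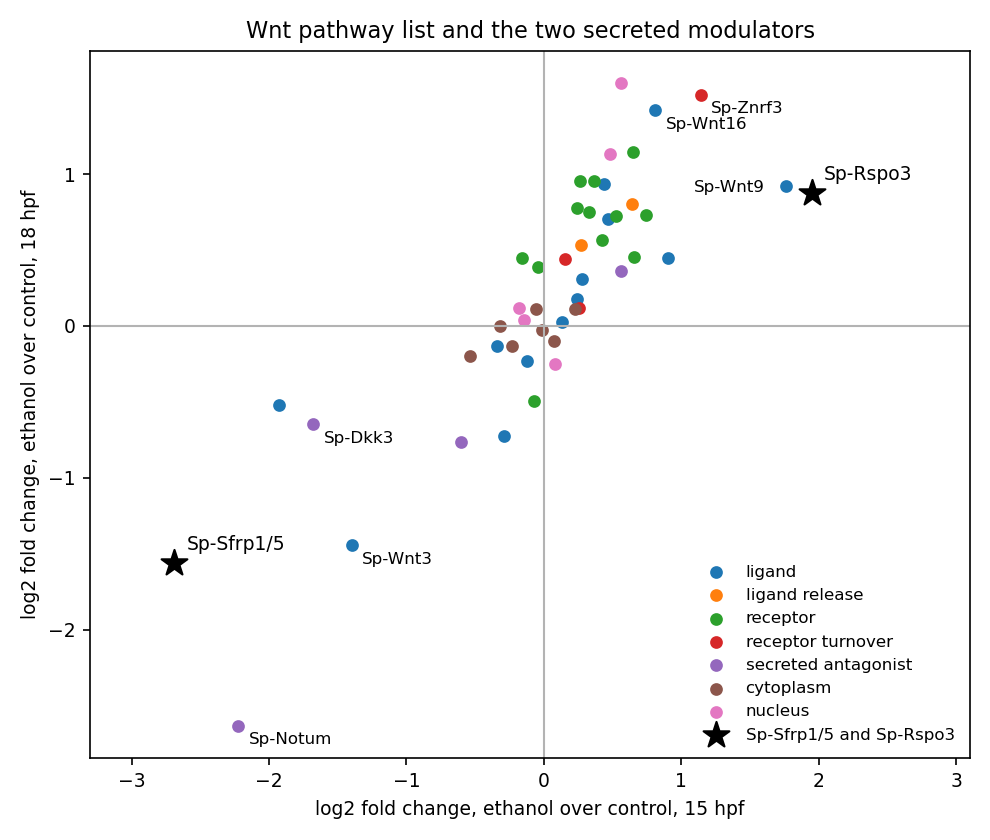
Log2 fold change of ethanol over control at 15 hpf (horizontal) and 18 hpf (vertical) for the 46 tested gene models of the Wnt pathway list, coloured by role, with Sp-Sfrp1/5 and Sp-Rspo3 as black stars. Grey lines mark 0. Sp-Sfrp1/5 lies at -2.69 and -1.56 on the lower left, where Sp-Notum, Sp-Dkk3 and Sp-Wnt3 also lie, and Sp-Rspo3 lies at 1.95 and 0.88 on the upper right; points are shown whether or not they passed the test.

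Averaged over the 3 times, edgeR called 0 of the 46 Wnt genes higher and 2 lower without the block (0.53% of all genes called, 0.386% lower), and 10 higher and 4 lower with it (21.2% of all genes called, 8.95% higher and 12.2% lower). Both genes lower without the block were listed here as secreted antagonists, Sp-Dkk3 (-0.91, edgeR adjusted p = 0.0183) and Sp-Notum (-1.70, edgeR adjusted p = 0.0406). The plan made for the list had placed Sp-Notum with ligand release, so its role here differs from that plan. What Sp-Dkk3 does to Wnt signalling in these embryos was not tested. With the block the genes called higher were Sp-Wnt1 (1 of 2 models), Sp-Wnt9, Sp-Wnt16, Sp-Ryk, Sp-Fzd4, Sp-Fzd9/10 and Sp-Tcf. The last 3 of these were called in both models. Those lower with the block were Sp-Dkk3, Sp-Notum, Sp-Wnt3 and 1 model of Sp-Wif. The averaged values of Sp-Sfrp1/5 and Sp-Rspo3, which were singled out on parts of the same contrast, were -1.43 (SE 0.18) and 1.02 (SE 0.25). When the replicate 3 pair at 21 hpf was left out, 19 of the 46 Wnt genes were called without the block, 15 higher and 4 lower, where 3502 of all 18674 genes were called, and the averaged values were -1.54 for Sp-Sfrp1/5 and 1.11 for Sp-Rspo3.

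Because sfrp1/5 is known from the anterior neuroectoderm, 8 names of transcription factors of that territory were listed, matching 12 gene models, all tested. Sp-FoxQ2_1, Sp-Hbn, Sp-Rax and Sp-Six3 were each carried by 2 models, between which reads could be split. The counts and medians below are therefore of gene models, not of separate genes. At 15 hpf 1 was lower in edgeR's fit without the block and 3 with it, with 0 higher in either, and the median log2 fold change was -1.05 beside 0.04 for all genes. Without the block 9 of the 12 had an unadjusted p under 0.05, beside 2038 of all 18674 tested genes. Of all tested genes 0.0589% were called without the block, and 0.359% were lower with it. At 18 hpf 0 were called without the block, with 4 at an unadjusted p under 0.05 (3070 of all genes). With the block 2 were lower, where 2.61% of all genes were lower, and the median was -0.62. At 21 hpf 0 were called in either fit, 0 had an unadjusted p under 0.05 (128 of all genes without the block), and the median was -0.24. With the replicate 3 pair left out, the median at 21 hpf was -0.58, beside 0.02 for all genes, with 0 called in edgeR's fit without the block. In that fit 12 of all genes were called. The called genes were named after their values were seen. Sp-Z133, the sea urchin fez gene, had 4.89, 8.07 and 7.48 CPM in ethanol embryos at 15 hpf, against 22.5, 31.3 and 27.5 CPM in controls (log2 fold change -1.99, edgeR adjusted p = 0.0124, lower in 3 of 3 pairs). Sp-Lhx2 had 2.78, 1.71 and 2.79 CPM in ethanol embryos at 15 hpf, against 13.6, 9.54 and 9.02 CPM in controls. It passed with the block only (log2 fold change in that fit -2.14, edgeR adjusted p = 0.0250). Sp-Nkx2-1 had 67.8, 100.1 and 81.5 CPM in ethanol embryos at 15 hpf, against 170.3, 184 and 197 CPM in controls. It passed with the block only (log2 fold change in that fit -1.15, edgeR adjusted p = 0.0239).

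The 2 models of Sp-Six3, another factor of that territory, had log2 fold changes of 0.41 and 0.45 at 15 hpf and were not called. At 21 hpf the log2 fold change was -0.24 for both Sp-Z133 and Sp-Nkx2-1 (-0.76 and -0.51 without the replicate 3 pair), and neither was called. The ethanol library of replicate 3 at 21 hpf held more Sp-Z133 (38.9 CPM) than the control library of that number (21.5 CPM). Whether levels of Sp-Sfrp1/5 moved with the number of anterior neuroectoderm cells was not tested.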

How the data were processed

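RNA sequencing libraries of whole embryos were reduced by the authors to read counts per gene model, deposited with 1 column per sample and not pooled. The submitters' processing notes name fastp, STAR and featureCounts, with no versions; genome build, annotation version and strand setting are not given in the sources used here. Without a stated strand, reads of overlapping antisense genes cannot be told apart. The deposited annotation gives each gene model a position and its best S. purpuratus hit, with the percent identity per the file headers. Count columns carry numbers that a deposited sheet links to time, treatment and one of the letters A, B or C, read here as replicates 1, 2 and 3.

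Counts were analysed in R 4.3.3 with edgeR 4.0.16. filterByExpr (minimum count 10, minimum total 15) kept 18674 gene models. TMM scaling and a quasi-likelihood model with 6 group means were fitted to all 18 samples, with two-sided tests, Benjamini-Hochberg adjustment over all tested genes and a threshold of 0.05. The SE was approximated from the log2 fold change and its F statistic (size over root F), and 95% intervals use the t distribution of that fit. The script was tested on simulated counts. Log2 CPM values used a prior count of 2.

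Replicate numbers are shared between groups. Deviations of same-numbered ethanol and control libraries from their group means correlated across genes at 0.600 to 0.742 at 15 hpf and 0.630 to 0.680 at 18 hpf, and between 0.557 and 0.754 over the 18 same-numbered pairs of groups of both times together. Same-numbered libraries were therefore taken as paired at 15 and 18 hpf. At 21 hpf the correlations were 0.156, 0.402 and -0.222 for replicates 1, 2 and 3, so there the samples were taken to share only a number. The replicate 3 pair enters the group means behind all of these values, so absence of pairing was not shown. The replicate block nevertheless gave each replicate number the same effect at all times, 21 hpf included.

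Alternatives were a replicate block, DESeq2 1.42.0, limma 3.58.1 (voom), relative log expression (RLE) scaling, no filter beyond a count above 0, each replicate left out, and the replicate 3 pair at 21 hpf left out. The 5 most correlated named genes per gene (1 of those for Sp-Rspo3 is not reported here), Wnt list genes called at 1 time in either fit, and receptors and relatives of Sfrp and R-spondin were named. Both genes and all lists were chosen with earlier results of these data known.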

Additional observations from a re-analysis of the deposited data

How the results depend on the processing

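The ethanol differences of Sp-Sfrp1/5 at 15 hpf and 18 hpf kept their sign in all 14 alternatives, at -2.76 to -2.60 and -1.79 to -1.42, as did that of Sp-Rspo3 at 15 hpf, at 1.69 to 2.42. At 21 hpf Sp-Sfrp1/5 ranged from -0.43 to 0.45, with positive values without replicate 2. Sp-Rspo3 did not pass at 18 hpf in any alternative (0.62 to 1.48), nor at 21 hpf, where leaving out 1 replicate gave -0.24 to 0.51, negative without replicate 1 (-0.22, with the block -0.24). With the replicate block its 21 hpf value was 0.17. The averaged time changes of Sp-Sfrp1/5 given next use the same libraries as its ethanol time course and are no separate support for it. The rise of Sp-Sfrp1/5 from 15 to 18 hpf, averaged over both kinds of embryo, passed with the replicate block (0.87), with DESeq2 (0.87, adjusted p = 0.00622), with DESeq2 and the block (0.86, adjusted p = 0.00169) and, with the block, without the replicate 3 pair at 21 hpf (0.87, adjusted p = 0.00461); leaving out 1 replicate gave 0.71 to 1.07, and it passed without replicate 2 with the block (1.06). From 15 to 21 hpf, leaving out 1 replicate gave 1.14 to 1.42, with no call without replicate 1 (1.16) unless the block was added (1.17, adjusted p = 0.0191). With all libraries the block changed no other call of the 2 genes; the change of Sp-Rspo3 from 15 to 21 hpf had an edgeR adjusted p of 0.0678 with it. Counts of the 46 Wnt list genes varied with the fit and with the libraries used. At 15 hpf they were 1 without the block, 3 with DESeq2, 5 with DESeq2 and the block, 2 and 10 without the replicate 3 pair (no block, block), and 0 to 4 with 1 replicate left out. Over the whole table the same fits called 11, 161, 1079, 81 and 2929 genes, and 0 to 336 with 1 replicate left out. At 18 hpf they were 0, 3 with the block, 3 with DESeq2, 11 with DESeq2 and the block, 3 and 19 without the pair, and 0 to 5. The whole-table counts, in that order, were 0, 760, 280, 2820, 320 and 5133, and 0 to 1153. At 21 hpf they were 0, 9 without the pair with the block, and 0 to 5, beside whole-table counts of 0, 2032, and 0 to 1221. Averaged over the times they were 2, 14 with the block, 5 with DESeq2, 19 with DESeq2 and the block, 1 with limma-voom, 19 and 27 without the pair, and 0 to 22. Whole-table counts there were 99 without the block, 1453 with DESeq2, 24 with limma-voom, and 0 to 5915 with 1 replicate left out. The causes were not tested. Genes called over the whole table ranged from 0 to 2929 at 15 hpf, 0 to 5133 at 18 hpf, 0 to 2032 at 21 hpf and 0 to 8625 averaged over the times, with 3950 for the block, 4903 for DESeq2 and the block, and 3502 and 8625 without the pair. The order of the 6 groups was the same under RLE scaling, and without the replicate 3 pair, tried after seeing the data, 4 of 6 places were kept for each gene. Depth limits Sp-Rspo3, with 8 to 19 counts in control embryos at 15 hpf.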
